A study of Drosophila melanogaster with 10 samples.

Results

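The G2/M against G1 comparison described here covers the 2 Drosophila S2 cell cultures in which the Slimp probe set gave a high signal. The cultures were chosen by that measured signal: every array with a Slimp value above 11 (log2) was kept, which left 4 of the 10 arrays in the series, from 2 of its 5 cultures. They are the cultures labelled control 3 and knockdown 2, each with 1 G2/M array and 1 G1 array. S2 is an established embryonic cell line with haemocyte-like properties, haemocytes being the blood cells of the fly. In the knockdown culture, per the submitters' design, copper sulfate switches on depletion of SLIMP in a stable line, while the control culture carries the label WT; whether the control cells also received copper is not given in the sources used here. Living cells were stained with a DNA dye and sorted by DNA content, RNA was taken from the sorted cells with magnetic beads, and the cDNA was amplified by PCR before it was hybridised to Affymetrix 3' expression arrays. The other 3 cultures, labelled control 1, control 2 and knockdown 3, have the same treatments and sorts and serve for comparison. A culture here means a G2/M and a G1 array with the same genotype label and number, and nothing in the labels says that the numbers stand for separate cultures. The p-values below therefore rest on variation among these arrays alone, and that variation may be technical.

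Cells in G1 have unreplicated chromosomes, and cells in G2/M have copied their DNA and are preparing for or passing through division. In many animal cells the transcripts for mitotic kinases, kinetochore proteins and spindle motors build up towards mitosis, while genes for DNA replication are typically switched on around the entry into S phase. SLIMP, a mitochondrial protein found in insects, is a paralogue of SerRS-m, the enzyme that charges mitochondrial serine tRNAs.

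The Slimp probe set gave 12.51 in G2/M and 12.55 in G1 in the culture labelled control 3 (log2 signal). In the culture labelled knockdown 2 it gave 12.53 in G2/M and 12.59 in G1. The 6 arrays of the other cultures lay between 8.68 and 9.06, so no array was near the value of 11. These values chose the cultures and are given with no test. They go against the genotype labels, since 1 culture labelled control and 1 labelled knockdown stand on the high side and 2 labelled control stand on the low side with 1 labelled knockdown. The genotype labels are used here only to name the cultures and to pair their arrays, and no effect of knockdown is read from them.

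**Figure D1:**
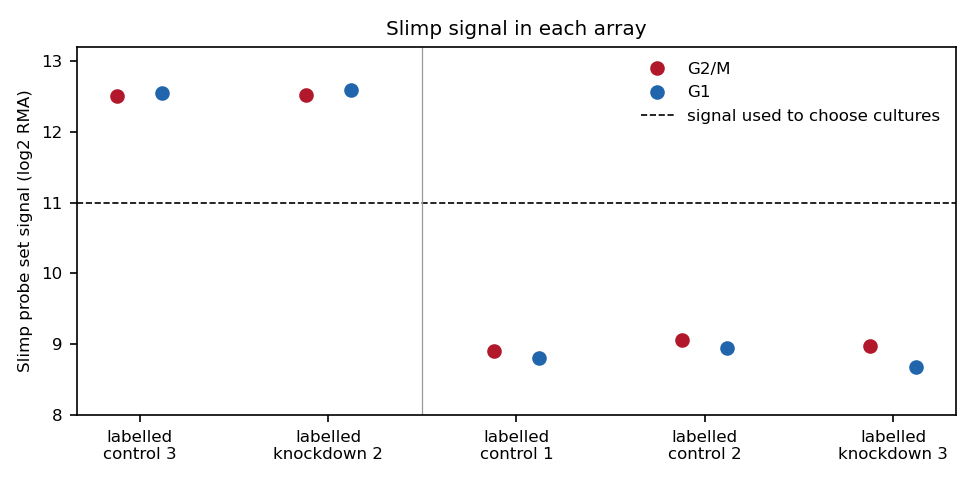
Log2 signal of the Slimp probe set in each of the 10 arrays, 1 point per array, with G2/M left of G1 in each culture and a dashed line at 11. The 4 arrays labelled control 3 and knockdown 2 lie at 12.51 to 12.59, and the other 6 lie at 8.68 to 9.06.

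Of 18769 probe sets, 363 (1.93%) were higher in G2/M and 622 (3.31%) were lower in G2/M in the 2 Slimp-high cultures, at a limma adjusted p under 0.05. The 363 represented 309 named genes and the 622 represented 480 named genes. The median difference was 0.48 among the higher probe sets and -0.56 among the lower ones, against 0.00 over all probe sets (log2, G2/M minus G1). More than 2-fold differences were found in 21 of the higher and 57 of the lower probe sets. The probe sets that changed were bright ones, with a median signal of 9.17 for the higher and 8.37 for the lower set, beside 6.58 for all probe sets. The 2 cultures moved partly together: the phase differences in control 3 and knockdown 2 correlated across probe sets with Pearson's r of 0.57 and Spearman's rho of 0.40, as a description in which probe sets are not independent. The 2 cultures' differences were typically 0.14 apart (median absolute difference over all probe sets). The count depended on having both cultures: it was 29 without knockdown 2 and 35 without control 3, and 628 without knockdown 3, which entered only through the shared estimate of spread. In sorted bulk samples, fewer cells that express a gene and less of its RNA per cell cannot be told apart.

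The largest rise was in NANS, which encodes N-acetylneuraminic acid synthase, an enzyme of sialic acid synthesis. NANS gave 7.65 and 7.56 in G2/M of control 3 and knockdown 2, against 5.41 and 5.33 in G1 (log2 signal). The groups lay far apart, with a difference of 2.23 ± 0.08 (log2 ± SE, n = 2 pairs), or 4.69-fold. The limma adjusted p of 0.000102 was the smallest of all probe sets. Each SE given here is limma's, with the spread estimated over all 10 arrays. It is therefore not the spread between control 3 and knockdown 2 alone. The next largest rise was in ncd, a minus-end-directed kinesin that focuses spindle poles, with 10.89 and 10.92 in G2/M and 9.02 and 9.11 in G1. Its difference was 1.84 ± 0.10 (3.59-fold, limma adjusted p = 0.000427), and the 2 cultures differed from each other by much less than the phases did. CG10508, a gene without a name, had 3 probe sets that all rose, by 1.37 to 1.73.

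Sirt4, a mitochondrial sirtuin, gave 8.40 and 8.10 in G2/M and 6.94 and 6.76 in G1, a difference of 1.40 ± 0.08. SecS, the synthase that makes selenocysteine on its tRNA, gave 7.40 and 7.24 in G2/M against 6.17 and 6.14 in G1, a difference of 1.16 ± 0.09. Neither gene's G2/M values came near its G1 values in either culture. Phyhd1, which carries a phytanoyl-CoA dioxygenase domain, rose by 1.51 ± 0.15 and gave 6.79 and 7.02 in G2/M against 5.49 and 5.30 in G1. Dyb, the fly dystrobrevin, was the member in which the cultures were least alike, with 7.00 and 7.22 in G2/M and 6.18 and 5.71 in G1, and a difference of 1.17 ± 0.15. The remaining rises of this size were in CG34355 (1.42), CG31125 (1.41), CG15653 (1.19), Rchy1 (1.16), which encodes a RING and CHY zinc finger protein, and Boot (1.08). CG34355 had a second probe set, which gave 0.45 and did not pass. The limma adjusted p-values of these 12 genes ran from 0.000102 to 0.00885.

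The largest fall was in Mlp60A, a muscle LIM protein that binds the actin cytoskeleton. Mlp60A gave 7.72 and 7.60 in G2/M of control 3 and knockdown 2, against 9.67 and 9.69 in G1, a difference of -2.02 ± 0.20 with a limma adjusted p of 0.003. All 3 of its probe sets fell, by amounts from -2.02 to -0.66. CG42268 gave 4.49 and 4.83 in G2/M and 6.51 and 6.55 in G1, a difference of -1.87 ± 0.10, but its 3 probe sets disagreed, as 2 fell and the remaining one gave 0.02. The metallothionein MtnB, a small protein that binds copper and other metals, gave 8.92 and 8.59 in G2/M and 10.67 and 10.54 in G1. Its difference was -1.85 ± 0.13, or 0.278 times the G1 signal.

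CanB, a regulatory subunit of the phosphatase calcineurin, gave 6.26 and 6.17 in G2/M against 7.81 and 7.80 in G1, a difference of -1.59 ± 0.12. Dop2R, a D2-like dopamine receptor, gave 7.47 and 7.89 in G2/M and 9.13 and 9.12 in G1, a difference of -1.45 ± 0.11. In both genes the 2 G1 arrays were nearly equal, and they stood above both G2/M arrays, as the choice of these genes required. NijB, one of the fly ninjurins, which are membrane proteins, fell by 1.45 on the log2 scale, and the zinc transporter ZnT35C fell by 1.35. The UDP-glycosyltransferase Ugt37C2 fell by 1.40 and the cytochrome P450 Cyp6d2 fell by 1.34. Srg1 (-1.71), Elal (-1.57) and CG8620 (-1.37) completed the 12 largest falls, whose limma adjusted p-values ran from 0.000427 to 0.00379. Among all 24 genes of these sets, 9 missed the threshold without control 3 and 11 without knockdown 2, with the direction kept in each. NANS and ncd passed in both cases, and Mlp60A, MtnB and CanB in neither.

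**Figure D2:**
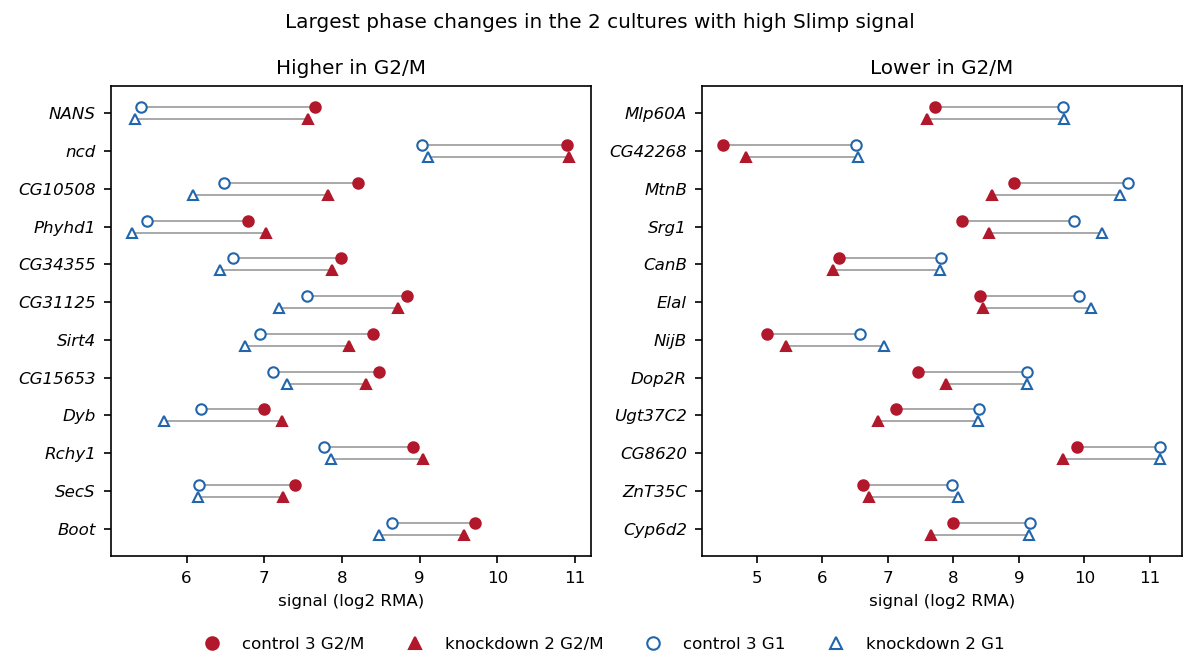
Log2 signal of the 12 genes with the largest rise and the 12 with the largest fall between phases, with circles for control 3, triangles for knockdown 2, filled red for G2/M and open blue for G1, and a grey line joining the arrays of a culture. NANS lies at 7.56 to 7.65 in G2/M and 5.33 to 5.41 in G1, and Mlp60A at 7.60 to 7.72 in G2/M and 9.67 to 9.69 in G1. The phases do not overlap in these genes because that was a condition of their choice. Among all 18769 probe sets, 4212 were higher and 4289 lower in G2/M without overlap.

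Cell cycle regulators and the division machinery were described as gene lists, with the share of all probe sets that rose (1.93%) or fell (3.31%) as the background. Among cyclins, Cdks and their partners, 1 of 10 measured genes rose and 1 fell, with a median difference of -0.01 that turned to 0.01 with quantile normalization. CycB3, a mitotic cyclin, gave 10.15 and 10.15 in G2/M and 9.14 and 9.01 in G1, a difference of 1.07 ± 0.08 (limma adjusted p = 0.00119). Cdk4, the partner of cyclin D, gave 9.64 and 9.76 in G2/M and 10.05 and 10.07 in G1, a difference of -0.37 ± 0.07. CycB, the other B-type cyclin measured, did not pass the test at 0.21. CycE, the S phase cyclin, did not pass either, at -0.28. CycA, Cdk1 and stg are not analysed here.

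The mitotic kinases and the chromosomal passenger complex, which carries the Aurora B kinase to centromeres and the midzone, had the highest list median at 0.47. Of the 9 measured genes 6 rose and none fell. Incenp, the scaffold of the passenger complex, gave 10.14 and 9.95 in G2/M and 9.38 and 9.48 in G1, a difference of 0.61 ± 0.11. The kinase aurB gave 9.72 and 9.67 in G2/M and 9.08 and 9.15 in G1, a difference of 0.58 ± 0.08. Another subunit, borr, the fly borealin, gave 10.06 and 10.08 in G2/M and 9.50 and 9.52 in G1, a difference of 0.56 ± 0.08. The phases did not overlap in any of these subunits, as in 355 of the 363 probe sets that rose. Among all 18769 probe sets, 4212 were higher in G2/M without overlap. The remaining risers were mei-38 (0.47), endos (0.46) and Det (0.37), while gwl, the Greatwall kinase, gave -0.07. Of the 6 risers only aurB is a kinase, and the kinases polo and aurA are not analysed here.

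Kinetochore and centromere genes had a median of 0.35, and 9 of 15 rose with no fall. Ndc80 and Nuf2, which together form the part of the Ndc80 complex that grips microtubules, moved most. Ndc80 gave 9.11 and 8.91 in G2/M and 8.10 and 8.19 in G1, a difference of 0.86 ± 0.09. Nuf2 gave 9.88 and 9.72 in G2/M and 8.98 and 8.95 in G1, a difference of 0.83 ± 0.08. Cenp-C, the link between centromeric chromatin and the outer kinetochore, followed with 8.96 and 8.88 in G2/M against 8.22 and 8.20 in G1. Its difference was 0.71 ± 0.12. The centromeric histone cid (0.22) and its loading factor cal1 (-0.13) did not pass the test. Of the 15 genes, 12 were higher in G2/M in both cultures, beside 30.4% of all probe sets, and 1 was lower in both, beside 31.1%.

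Among mitotic kinesins 3 of 10 rose and 1 fell. Beside ncd, the CENP-E kinesin cmet gave 9.07 and 9.46 in G2/M and 8.67 and 8.57 in G1, a difference of 0.64 ± 0.12, and the kinesin-8 Klp67A rose by 0.61 ± 0.08. Klp31E gave 7.04 and 7.50 in G2/M and 7.74 and 7.82 in G1, a difference of -0.51 ± 0.12 whose limma adjusted p of 0.0498 lay at the threshold. In the condensin and cohesin list 3 of 16 rose, and those were the condensin subunits Cap-D2 (0.69 ± 0.09), SMC2 (0.67 ± 0.11) and glu (0.62 ± 0.08). The measured cohesin core subunits did not pass, with 0.12 for SMC1 and 0.06 for SMC3.

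Of 23 centrosome and spindle genes 2 rose and 1 fell. The scaffold spd-2, which recruits pericentriolar material, gave 8.80 and 8.82 in G2/M and 7.86 and 8.10 in G1, a difference of 0.83 ± 0.10. Rcd2 gave 8.45 and 8.70 in G2/M and 9.57 and 9.41 in G1, a difference of -0.92 ± 0.13. Of 21 genes of the spindle checkpoint and the anaphase-promoting complex, 3 rose and 1 fell. fzy, the fly Cdc20 that activates this complex, gave 10.78 and 10.81 in G2/M and 9.78 and 9.97 in G1, a difference of 0.92 ± 0.09. Its 3 probe sets disagreed, since 1 rose and the lowest gave -0.31. The other activator, fzr, rose by 0.42 ± 0.08, and the subunit APC7 fell by 0.63 on the log2 scale.

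Cytokinesis genes had a median of 0.15, with 3 of 9 risen. They were tum (0.48), a subunit of centralspindlin, the fly anillin scra (0.45) and Septin5 (0.35). Nuclear pore genes had a median of 0.15, with 5 of 22 risen and none fallen. Nup35 was well above the other pore genes, with 11.11 and 11.11 in G2/M and 10.01 and 10.26 in G1, a difference of 0.97 ± 0.10. Across all gene lists, 70 genes were followed under other settings. They were the named members past the threshold outside the largest rises and falls, and SerRS-m, which did not pass. Nearly all of these members missed the threshold without control 3 or without knockdown 2, where a lone culture stood for its class.

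**Figure D3:**
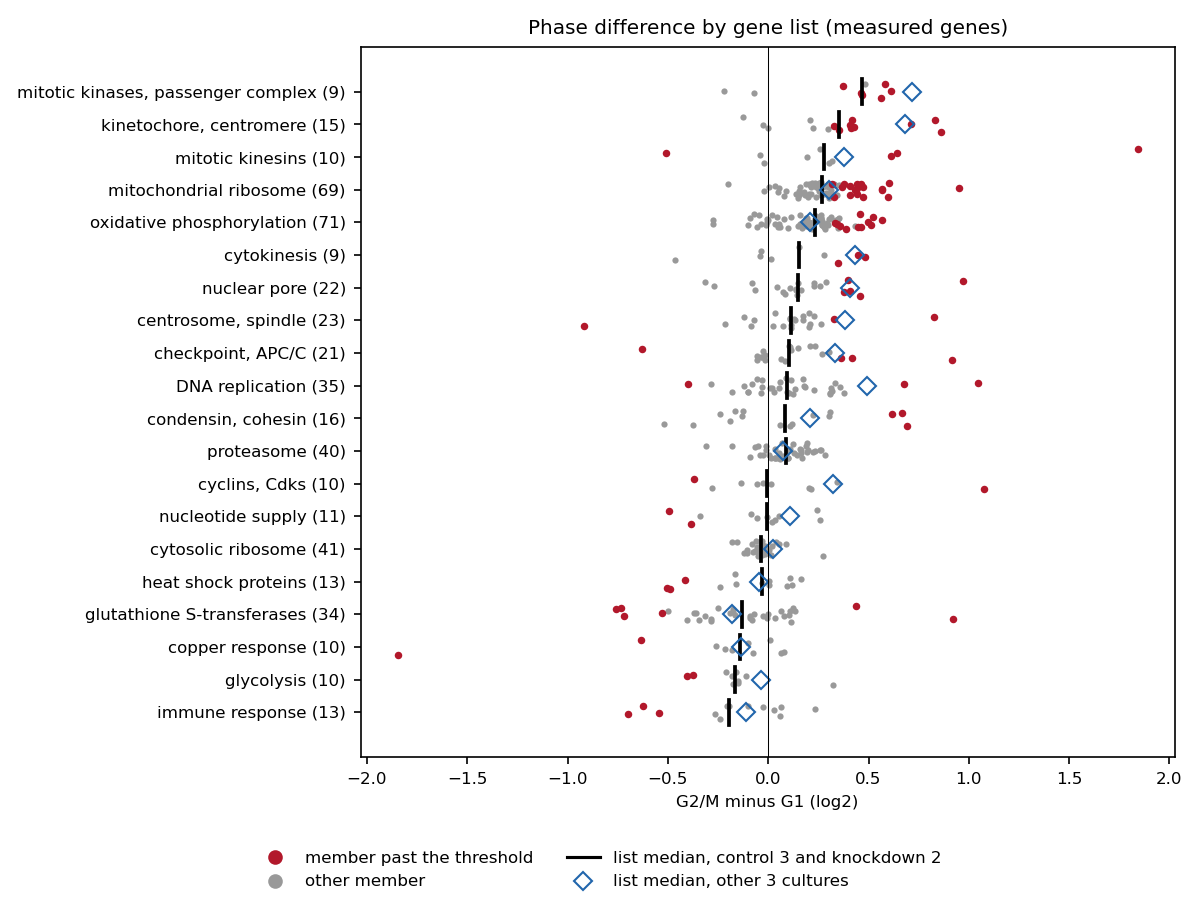
G2/M minus G1 (log2) of the measured genes in 20 gene lists, the number of genes in brackets, 1 point per gene for the 2 Slimp-high cultures, red where the limma adjusted p was under 0.05. Black bars mark the list medians in control 3 and knockdown 2, from 0.47 for the mitotic kinase and passenger complex list to -0.19 for immune genes. Blue diamonds mark the medians in the other 3 cultures, which stand at 0.49 for DNA replication where the black bar stands at 0.09.

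Few DNA replication genes passed the test between phases in the Slimp-high cultures. Of 35 measured genes 2 rose and 1 fell, and the median was 0.09. RfC3, a subunit of the clamp loader, gave 8.50 and 8.54 in G2/M and 7.88 and 7.08 in G1, a difference of 1.04 ± 0.19, so its 2 G1 arrays were far apart. Orc5, a subunit of the origin recognition complex, gave 7.72 and 7.39 in G2/M and 6.86 and 6.90 in G1, a difference of 0.68 ± 0.11. PCNA, the sliding clamp, fell by 0.40 on the log2 scale and gave 10.77 and 10.95 in G2/M against 11.18 and 11.34 in G1. Members that did not pass included the helicase subunits Mcm2 (0.03) and Mcm5 (0.31) and the licensing factor dup (-0.03). In the nucleotide supply list 2 of 11 fell and none rose. These were RnrL, the large subunit of ribonucleotide reductase, with 10.78 and 11.07 in G2/M and 11.37 and 11.47 in G1, and the deoxyribonucleoside kinase dnk, with 10.07 and 10.06 in G2/M and 10.48 and 10.42 in G1. The differences were -0.49 ± 0.09 in RnrL and -0.39 ± 0.09 in dnk.

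Among regulators of cell cycle transcription in the E2F and DREAM list, 1 of 8 rose. It was lin-52, a subunit of the DREAM repressor complex, with 9.65 and 9.28 in G2/M and 9.08 and 8.67 in G1, a difference of 0.59 ± 0.08. In the list of DNA damage and cell death genes 2 of 12 rose and 1 fell. The checkpoint kinase lok, the fly Chk2, gave 9.12 and 9.40 in G2/M and 8.57 and 8.63 in G1, a difference of 0.66 ± 0.10. The TNF ligand egr gave 11.92 and 11.90 in G2/M and 11.51 and 11.49 in G1, a difference of 0.41 ± 0.07. Irbp, the fly Ku70 of DNA end joining, gave 9.83 and 10.57 in G2/M and 10.54 and 10.99 in G1, where the phases overlapped across cultures while each culture was lower in G2/M, with a difference of -0.57 ± 0.10. The histone list held only the variant His2Av (0.14) and the embryonic linker histone BigH1 (0.03). Neither passed in limma, at an unadjusted p of 0.0934 in His2Av and 0.747 in BigH1.

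A share of the genes encoding mitochondrial proteins rose in G2/M, mostly by less than the mitotic genes named above. Among 69 mitochondrial ribosomal protein genes, 19 rose, none fell and the median was 0.27. In 64 of the 69 both cultures were higher in G2/M, beside 30.4% of all probe sets. mRpS14, a protein of the small mitochondrial subunit, gave 10.31 and 10.26 in G2/M and 9.26 and 9.42 in G1, a difference of 0.95 ± 0.09 (1.93-fold, limma adjusted p = 0.00203). The next were mRpL55 (0.60), mRpL49 (0.60) and mRpS35 (0.57). The oxidative phosphorylation list behaved alike in direction, with 11 of 71 risen, none fallen, a median of 0.23 and 53 higher in both cultures. Its leading members were subunits of complex I, the NADH dehydrogenase. ND-B14.5A gave 10.96 and 10.74 in G2/M and 10.31 and 10.26 in G1, a difference of 0.57 ± 0.08. ND-18 (0.52), ND-B14.5B (0.51) and ND-19 (0.50) followed. The medians were larger in control 3 than in knockdown 2, at 0.33 and 0.23 for the mitochondrial ribosome and 0.29 and 0.16 for oxidative phosphorylation.

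Factors that maintain and transcribe mitochondrial DNA did not pass the limma test in any of 9 measured genes, though 3 had an unadjusted p under 0.05. TFAM, which packages mitochondrial DNA, gave 10.32 and 10.24 in G2/M and 10.01 and 10.13 in G1, a difference of 0.21 ± 0.08. SerRS-m gave 10.08 and 10.14 in G2/M and 9.76 and 10.07 in G1, and its difference of 0.19 ± 0.09 did not pass (limma adjusted p = 0.289). Slimp itself differed by -0.05 ± 0.08 between phases in these cultures. Of 12 antioxidant genes 2 rose and none fell, with a median of -0.06, and 7 were lower in G2/M in both cultures while 4 were higher in both. Sod2, the mitochondrial superoxide dismutase, rose by 0.36 ± 0.08, and the peroxiredoxin Prx6c rose by 0.60 ± 0.09. The cytosolic ribosome, by contrast, had a median of -0.04 and no member past the threshold in 41 genes, of which 2 had an unadjusted limma p under 0.05. The 40 proteasome genes had a median of 0.09 with none past the threshold and 7 at an unadjusted limma p under 0.05.

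In the copper list 2 of 10 fell and none rose, namely MtnB and a second metallothionein, MtnD. MtnD gave 12.66 and 12.59 in G2/M and 13.31 and 13.21 in G1, a difference of -0.64 ± 0.08. The metallothionein MtnA gave 0.01, and the copper importers Ctr1A (0.06) and Ctr1B (-0.10) did not pass the test. In the immune list 3 of 13 fell. AttD, an antibacterial attacin, gave 12.12 and 11.92 in G2/M and 12.74 and 12.70 in G1, a difference of -0.70 ± 0.08. PGRP-LF and pirk, which both restrain the immune deficiency pathway, fell by 0.62 and by 0.55 on the log2 scale. Of 34 glutathione S-transferases 4 fell, GstD6, GstD2 and GstD5 among them with differences of -0.76 to -0.72, and 2 rose, led by GstO1 at 0.92 ± 0.10. The GstD genes lie in a family of close copies, so their probe sets may share transcripts. Without the replicate block 1 immune gene fell, and 2 glutathione S-transferases fell and 2 rose. With quantile normalization the glutathione S-transferases again gave 2 falls and 2 rises.

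The heat shock list had 3 falls in 13 measured genes, and a median of -0.03 that came to 0.00 with quantile normalization, where 1 gene fell. Without the replicate block 0 of the 13 passed in limma, and 4 had an unadjusted p under 0.05. Hsp26, a small chaperone, gave 11.10 and 10.71 in G2/M and 11.42 and 11.40 in G1, a difference of -0.50 ± 0.11. The cochaperones stv and DnaJ-1 fell by 0.49 and by 0.42 on the log2 scale. Most Hsp70 genes are not analysed here. In glycolysis 2 of 10 fell, Pfk (-0.41) and Tpi (-0.38), and 9 of the 10 were lower in G2/M in both cultures, beside 31.1% of all probe sets. Without the replicate block 0 of these 10 passed in limma, and 3 had an unadjusted p under 0.05. Gapdh2, Ldh and PyK are not analysed here. Of 47 odorant-binding protein genes 4 fell, with Obp49a (-1.22) and Obp18a (-1.17) the furthest. The median of these genes was -0.01, and it changed sign under quantile normalization and median centring.

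Markers of the cell type were checked in the same arrays. The 12 haemocyte markers averaged 10.05 and 10.23 in G2/M of control 3 and knockdown 2, against 10.19 and 10.24 in G1, so they were bright in both phases, and their mean signals over all arrays ran from 7.68 to 13.23. Among them Pxn, an extracellular matrix peroxidase, gave 11.70 and 11.62 in G2/M and 11.10 and 11.28 in G1, a difference of 0.46 ± 0.10. A second Pxn probe set gave 0.20 and did not pass. The scavenger receptor Sr-CI gave 7.27 and 7.49 in G2/M and 8.05 and 7.97 in G1, a difference of -0.63 ± 0.09. The epithelial polarity gene crb rose by 0.63 ± 0.12, as 1 of 4 glial and epithelial markers. None of the measured crystal cell, fat body, muscle, neuron and germline list genes passed the limma test. Those lists held 4, 4, 3, 5 and 5 measured genes, of which 1, 0, 0, 1 and 1 had an unadjusted p under 0.05. The 3 muscle markers averaged 5.36 and 5.24 in G2/M and 5.14 and 5.22 in G1, below the median probe set signal of 6.58, whereas Mlp60A stood between 7.60 and 9.69. The array averages of the fat body list (5.34 to 5.48) and the crystal cell list (5.69 to 5.97) were also below that median. Those of the germline list (7.78 to 7.94), the neuron list (7.30 to 7.37) and the glial and epithelial list (6.80 to 7.19) were above it. In the neuron list, brp had 1 of its 4 probe sets called lower, at -0.71, but the brightest did not pass. The part of other cell types in the phase differences was not tested.

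The phase differences of the Slimp-high cultures were set against those of the other 3 cultures, with which they share no array but share 1 estimate of the spread. Across all probe sets the differences correlated with r of 0.62 and rho of 0.47, a description over probe sets that are not independent. Of the 363 probe sets that rose in the Slimp-high cultures, 317 also rose in the others, which is 87.3% of the Slimp-high rises and 13.4% of the 2363 rises in the others. Of the 622 that fell, 417 also fell in the others, which is 67% of the Slimp-high falls and 25.8% of the 1616 falls in the others. Opposite calls were found in 10 probe sets. The 363 risen probe sets had a median difference of 0.48 in the Slimp-high cultures and 0.60 in the others, a smaller median in control 3 and knockdown 2. The 622 fallen probe sets went the other way, with -0.56 in the Slimp-high cultures and -0.38 in the others, though they were selected for their fall in the first.

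**Figure D4:**
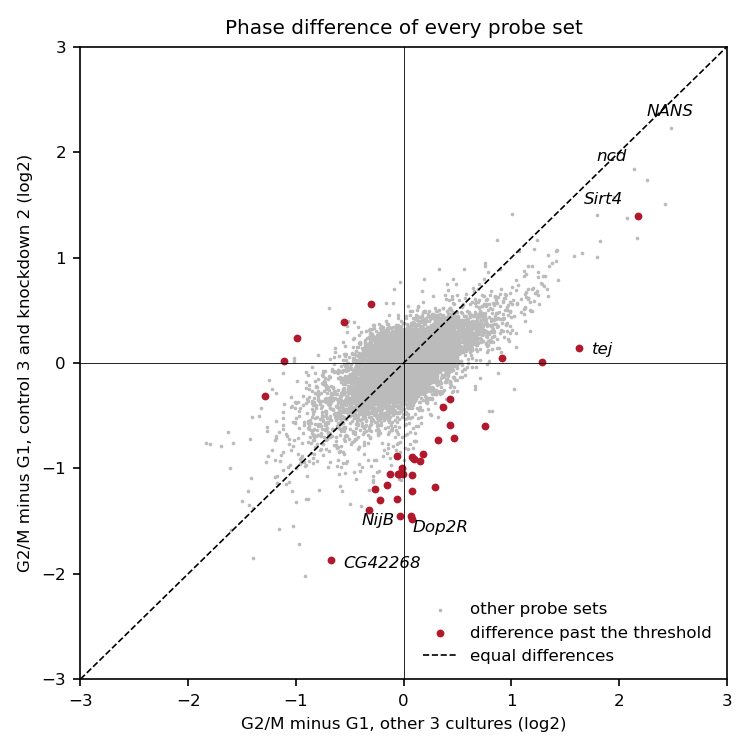
G2/M minus G1 (log2) of each of the 18769 probe sets, the 2 Slimp-high cultures on the vertical axis and the other 3 cultures on the horizontal axis, with a dashed line where they are equal. The 38 red points differ between the classes of culture at a limma adjusted p under 0.05, and 33 of them lie below the line.

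The difference between the classes was tested directly, as the phase difference in the Slimp-high cultures minus that in the others. It passed a limma adjusted p of 0.05 in 38 probe sets, 5 positive (0.0266% of all) and 33 negative (0.176%). When arrays were centred on their medians the counts were 17 positive and 51 negative. Without control 1 the count was 33, without control 2 it was 1, and none passed in limma without control 3, without knockdown 2 or without knockdown 3, where 1784, 2553 and 1911 probe sets had an unadjusted p under 0.05. Of the 33 negative ones, 29 fell in the Slimp-high cultures. Of those, 20 did not pass in the other cultures, 6 rose there and 3 fell there too. In most, both Slimp-high G1 arrays were brighter than the other 8 arrays, beside 8.91% of all probe sets. This order held in 27 of the 33, and in 15 of those both Slimp-high G2/M arrays were also brighter than the 6 arrays of the other cultures. The same values selected the 33, so the order is partly built in and is given as a description only.

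NijB had this order and the smallest p among named genes. It gave 5.15 and 5.45 in G2/M and 6.57 and 6.94 in G1 in control 3 and knockdown 2, while the G2/M and G1 arrays of the other cultures lay between 4.96 and 5.18. The difference between classes was -1.53 ± 0.11 (limma adjusted p = 0.00878). Dop2R was alike, since its 2 Slimp-high G1 arrays at 9.13 and 9.12 stood above every other array. In the other cultures Dop2R gave 7.17, 7.14 and 7.04 in G2/M and 7.28, 7.22 and 6.95 in G1. The class difference was -1.42 ± 0.14, and a second Dop2R probe set also passed, at -0.83.

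CG9570 gave 7.02 and 7.09 in Slimp-high G2/M cells and 8.10 and 8.13 in Slimp-high G1 cells, with the other cultures between 6.57 and 6.88, and a class difference of -1.14 ± 0.12. CG33775 (-1.09) and CG32280 (-1.46) followed the same order, CG33775 with control 3 brighter than knockdown 2 in both phases. The gene tej, which encodes a tudor domain protein of the germline piRNA pathway, differed in another way. It gave 5.23 and 5.23 in G2/M and 5.22 and 4.96 in G1 in the Slimp-high cultures, and did not pass there. In the other cultures it gave 7.46, 7.49 and 7.47 in G2/M and 6.07, 5.79 and 5.68 in G1, where it rose by 1.63. The class difference for tej was -1.48 ± 0.15 (limma adjusted p = 0.0252).

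Other genes past the threshold were looked at after their values were seen. Sting, a sensor adaptor of innate immunity, gave 10.27 and 10.35 in G2/M and 10.67 and 10.64 in G1 in the Slimp-high cultures, where it fell. In the other cultures it rose, with 10.59, 10.47 and 10.53 in G2/M and 10.13, 10.09 and 10.08 in G1. Ctl1, a choline transporter-like protein, likewise fell by 0.42 on the log2 scale in the Slimp-high cultures and rose by 0.37 in the others. The iron carrier Tsf1 gave 6.77 and 6.34 in Slimp-high G2/M cells and 7.55 and 7.39 in Slimp-high G1 cells, with 6.06 to 6.43 in the other cultures. Alp1, an alkaline phosphatase, and Lerp, a lysosomal sorting receptor, rose in the other cultures by 1.28 and 0.92 and did not pass in the Slimp-high ones, at 0.01 and 0.05. Sirt4 was the one that rose in both, by 1.40 in the Slimp-high cultures and 2.18 in the others, a class difference of -0.78 ± 0.10.

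The 5 positive ones all fell in the other cultures, and 1 of them, Sid, rose in the Slimp-high cultures. Sid, a nuclease, gave 9.82 and 9.49 in G2/M and 9.28 and 8.90 in G1 in control 3 and knockdown 2, against 10.09, 10.20 and 10.08 in G2/M and 10.38, 10.52 and 10.38 in G1 in the other cultures. The other four were CG12477, the scavenger receptor Sr-CIV, CG31219 and the cytochrome P450 Cyp4p3, with class differences from 0.95 to 1.23.

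**Figure D5:**
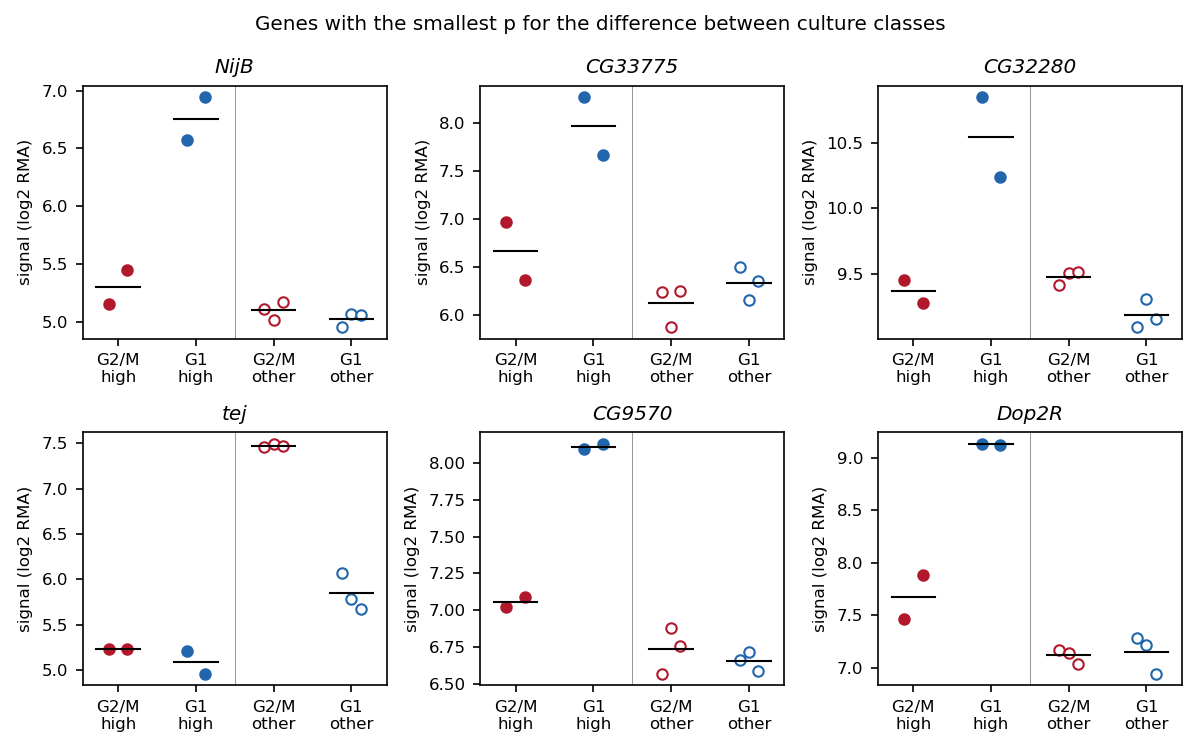
Log2 signal in all 10 arrays for the 6 named genes with the smallest p for the difference between classes of culture, filled points for the 2 Slimp-high cultures and open points for the other 3, G2/M in red left of G1 in blue, bars at the group means. In NijB, CG33775, CG32280, CG9570 and Dop2R both Slimp-high G1 arrays lie above all others, and tej reaches 7.46 to 7.49 only in G2/M of the other cultures.

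No gene of the division and replication lists passed the test of the class difference in limma, but most had values below 0. The difference was below 0 in 55.3% of all probe sets. It was below 0 in all 35 DNA replication genes, and the list's median phase difference was 0.09 in the Slimp-high cultures and 0.49 in the others, where 27 of the 35 rose. Of the 35, 25 had an unadjusted limma p under 0.05 and none passed the adjusted threshold, while 14 passed when limma's variance prior followed the signal. Mcm2 is an example, with 0.03 in the Slimp-high cultures and 0.71 in the others. All 35 stayed below 0 under quantile normalization, cyclic loess and median centring, and when any 1 culture was left out.

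The class difference was also below 0 in all 15 kinetochore genes, of which 12 had an unadjusted limma p under 0.05, and in all 9 genes of the mitotic kinase list, of which 7 did. None of these passed the adjusted threshold, while 3 kinetochore and 2 mitotic kinase genes did when limma's prior variance followed the signal. The kinetochore count was 14 of 15 with quantile normalization, with cyclic loess, without control 2 and without control 3, and all 9 mitotic kinase genes were below 0 in each of these. The kinetochore median was 0.35 in the Slimp-high cultures and 0.68 in the others, and the mitotic kinase median was 0.47 and 0.72. One example is aurB, which rose by 0.58 in the Slimp-high cultures and by 1.17 in the others, a class difference of -0.59 ± 0.11 (limma adjusted p = 0.0954). Centrosome genes were below 0 in 22 of 23, nuclear pore genes in 20 of 22 and checkpoint genes in 20 of 21. Mitotic kinesins were below 0 in only 6 of 10, and condensin and cohesin genes in 12 of 16. The lean was not confined to these lists. It held in 34 of 41 cytosolic ribosome genes, 9 of 9 mitochondrial DNA genes and 10 of 11 nucleotide supply genes. With quantile normalization those counts were 29, 5 and 7, beside 49.6% of all probe sets. Glutathione S-transferases were below 0 in 12 of 34 and antioxidant genes in 2 of 12. CycB gave 0.21 in the Slimp-high cultures and 0.74 in the others, and CycB3 gave 1.07 and 1.43.

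The class difference was below 0 in 44 of 69 mitochondrial ribosomal protein genes and 29 of 71 oxidative phosphorylation genes, and the list medians in the Slimp-high and the other cultures were 0.27 and 0.30, and 0.23 and 0.21. No oxidative phosphorylation gene had an unadjusted limma p under 0.05 for the class difference. Both counts moved with the scaling and with the cultures used. With quantile normalization 23 of 69 and 18 of 71 were below 0, beside 49.6% of all probe sets, and the mitochondrial ribosome medians were then 0.28 in the Slimp-high cultures and 0.24 in the others. Without control 3 the counts were 60 of 69 and 47 of 71, beside 58.7% of all probe sets. Without knockdown 2 they were 31 and 22, beside 51.6% of all probe sets. How pure the G2/M and G1 fractions were in each culture is not given in the sources used here, and the part of sorting in these class differences was not tested.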

How the data were processed

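Values were deposited by the authors on the log2 scale, 1 per probe set and array, and the submitters' processing notes name RMA as the tool. Its version and later steps are not given in the sources used here. Since RMA equalises the distributions of the arrays, a shift common to most transcripts is not visible. Array medians lay close together and no further scaling was applied. Of 18952 probe sets, 183 array controls were left out and 18769 tested, with no filter. The platform annotation gave 1 symbol to 13647 of them, several to 402 and none to 4720, and symbols were updated through RefSeq Release 6 gene identifiers for 13544. No genome or sequence was used.

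All 10 arrays entered 1 model in limma 3.58.1 (R 4.3.3), with culture as a fixed block, 1 phase coefficient for the 2 Slimp-high cultures and 1 for the other 3 (residual df 3, prior df 4.52), tested 2-sided with Benjamini-Hochberg adjustment over all tested probe sets. The code was tested on simulated data. The pairing of arrays by label and number was checked by correlating deviations from the group means within each class, which gave 0.195 in both Slimp-high cultures, where groups of 2 force equal values, and 0.331 to 0.393 in the others. All exceeded 0.1.

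The cultures, gene lists and tests were chosen with earlier results of these data known. Named genes were Slimp and SerRS-m, the 12 largest rises and falls past the threshold with no overlap of phases, the 6 smallest p-values for the class difference, and up to 4 members of each list past the threshold, or 2 where none passed. Other genes named were chosen after their values were seen. A list gene was represented by its brightest probe set, and listed genes without a probe set of 1 symbol are not analysed here. Alternatives were normalization, a filter on dim probe sets, the variance prior, 1 probe set per gene, the block, the 4 arrays alone, and leaving out each culture.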

Additional observations from a re-analysis of the deposited data

Results flagged for a closer look

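Among the genes named by the rule stated above, 9 had a phase difference that differed between the Slimp-high cultures and the other 3. The direct limma test of that difference was used (Slimp-high minus others, log2), and none of its 5 positive probe sets belonged to the genes named by rule. The values were -1.53 in NijB, -1.48 in tej, -1.46 in CG32280, -1.42 in Dop2R, -1.19 in CG42268, -1.14 in CG9570, -1.09 in CG33775, -1.08 in Ugt37C2 and -0.78 in Sirt4, with adjusted p-values from 0.00878 in NijB to 0.0374 in Sirt4. The classes of culture were set by a measured value, and none of the 38 probe sets called for this difference passed in limma without control 3, without knockdown 2 or without knockdown 3.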

How the results depend on the processing

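The number of probe sets that changed between phases in the Slimp-high cultures was 985 and the number that differed between classes was 38. Without the replicate block they were 673 and 31, and CG33775 lost its call for the class difference (adjusted p = 0.22). The counts became 2286 and 617 when the variance prior followed the signal. The class count was 84 without the dimmest 25% of probe sets and 68 with arrays centred on the median. Leaving out 1 culture gave 29 to 880 changed probe sets and 0 to 33 class differences, the 0 with 1784 to 2553 probe sets at an unadjusted limma p under 0.05. Without control 3 or knockdown 2 the lone culture of its class was assumed to vary like the others. Quantile normalization, cyclic loess, a robust prior, 1 probe set per gene and the 4 arrays alone kept both counts within 1.5 times where both could be had; the class difference needs the other cultures. No difference that was followed under these settings changed direction. Genes chosen after their values were seen were not followed, nor were class differences beyond the 6 with the smallest p among named genes. The 70 genes followed from the gene lists include SerRS-m, which did not pass and had no call to lose. Of these genes, 22 lost their call without the block, 19 without knockdown 3 and 13 without control 2. The number of arrays limits the precision, and with no detection calls the dim signals have only relative meaning.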
